A study of Homo sapiens with 26 samples.

Results

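Genes of the red cell membrane and its skeleton were followed in ribosome footprint libraries of 3 human cell lines. They were GYPB, GYPC, SLC4A1, EPB42, ANK1, SPTB and EPB41, 7 of the 19447 gene symbols in the count tables, chosen by name. The choice was made with earlier results of these data known. All 7 were listed in each of the 4 tables. Ribosome profiling sequences the stretches of mRNA that ribosomes shield from RNase I, so a count is a read on a coding sequence and reflects mRNA amount and translation together. K562 comes from a chronic myeloid leukaemia and can take on red cell features, whereas HEK293T and HEK293FT are lines of embryonic kidney origin that carry the SV40 large T antigen.

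A red cell keeps its shape and bends without breaking because a net of spectrin lies under its membrane. The net hangs from the membrane at a pair of anchor points. At one, ankyrin (ANK1) ties beta spectrin (SPTB) to the anion exchanger band 3 (SLC4A1), with protein 4.2 (EPB42) beside them. At the other, protein 4.1 (EPB41) joins spectrin and actin to glycophorin C (GYPC). Glycophorin B (GYPB) is a sialic acid-rich surface protein that carries blood group antigens. Inherited defects of several of these proteins cause hereditary spherocytosis or elliptocytosis.

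Cells of every group were lysed with cycloheximide, which holds ribosomes on the mRNA, and the lines were kept in DMEM (both HEK lines) or RPMI (K562), each with serum. The groups differed in line, in fragment size and in how ribosomal RNA was removed. HEK293T gave 8 libraries of fragments of 15 to 35 nt, 2 each left undepleted or treated with Ribo-Zero Gold, RiboCop or NEBNext. A K562 size experiment gave 4 single libraries, titled NEBNext or undepleted, each at 20 to 34 nt and at 20 to 60 nt. A K562 kit experiment at 20 to 34 nt gave pairs of libraries (undepleted; FastSelect; riboPools; riboPools eluted cold) and 1 library each for Ribo-Zero Plus alone, with oligos, with formaldehyde and with both. HEK293FT gave 1 undepleted library and 1 depleted with custom oligos, at 15 to 35 nt. Both size-experiment libraries titled undepleted also carry a label naming NEBNext, so directions in that experiment rest on the titles. The labels do not say whether replicates came from separate cultures, so p-values measure only the spread between these libraries, which may be technical.

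Total counts ran from 120019 to 421521 in HEK293T, from 46858 to 441249 in the K562 size experiment and from 116742 to 5795774 in the kit experiment, and were 900763 and 5747772 in HEK293FT. The 3 Ribo-Zero Plus libraries with additions were the shallowest of the kit experiment (116742 to 184722 counts) and stood apart: 64.8% to 69.7% of coding sequences had no count there, against 33.0% to 45.6% in the other 9. They are therefore described separately. Labels and marker genes went together. The summed level of 14 erythroid markers lay between 14700 and 15500 CPM (the count divided by the library's total and scaled to 1000000) in those 9 K562 libraries, between 195 and 378 CPM in HEK293T and between 239 and 266 CPM in HEK293FT. The erythroid factor GATA1 had no count in either HEK line. Of 8 embryonic kidney and neural markers, summed at 383 to 730 CPM in HEK293T and 35.4 to 57.2 CPM in K562, PAX8 had no count in HEK293T or HEK293FT. LIN28B, another of them, was not lower in undepleted K562 than in undepleted HEK293T (log2 difference 0.70, edgeR adjusted p = 0.248).

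Part of the GYPB count cannot be assigned with certainty, because parts of its coding sequence (GENCODE 29, GRCh38) recur in other genes. Over the whole GYPB coding sequence, 110 of 249 windows of 28 nt (44.2%) occur in a transcript of another gene, in its coding or noncoding part. No window of GYPC, ANK1 or EPB41 did, and SPTB and SLC4A1 each shared 5 windows with transcripts of another gene (for SLC4A1, those of SLC4A2). How reads that match several genes were counted is not given in the sources used here, so GYPB values are uncertain.

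On GRCh38, the GYPB transcript counted lies on chromosome 4 from 143996106 to 144019339, minus strand, with 273 coding bases, and GYPC on chromosome 2 from 126655933 to 126696670, plus strand, with 384. SLC4A1 lies on chromosome 17 from 44248385 to 44268134, minus strand, with 2733 coding bases. ANK1 lies on chromosome 8 from 41653220 to 41797622, minus strand, with 5643. SPTB lies on chromosome 14 from 64746283 to 64879883, minus strand, with 6984, and EPB41 on chromosome 1 from 28914601 to 29117048, plus strand, with 2523. EPB42 was not placed or scaled by length, as its transcript had no match in that annotation.

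The first question was how the lines differ. In undepleted libraries, GYPB, GYPC, ANK1 and SPTB were read by ribosomes in K562 and were at or near 0 in HEK293T, while EPB41 was read in all 3 lines and was 2.29-fold higher in K562 than in HEK293T. SLC4A1 was low in K562, and EPB42 was barely detected in any line. The lines were compared with edgeR's quasi-likelihood test over 7304 genes, of which 38.3% were called different between K562 and HEK293T at an adjusted p under 0.05 (20.4% higher in K562), and 55.1% between K562 and HEK293FT (27.5% higher). Apart from EPB41, the members tested passed the filter on low counts through K562 alone, so how many were called says nothing about them as a set. The lone HEK293FT library was assumed to vary like the duplicated groups. Cell line, medium, experiment and fragment size cannot be told apart in these comparisons, nor can less RNA per cell from fewer expressing cells in a bulk lysate.

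Of the glycophorins, GYPB stood at 27.3 and 33.9 CPM in the undepleted K562 libraries and at 0 in both undepleted HEK293T libraries and in HEK293FT. The groups did not overlap, and no HEK library of any treatment held a GYPB count. A count of 0 over both undepleted HEK293T libraries allows up to 11.0 CPM (3 counts), so GYPB was at least 2.78-fold higher in K562 (edgeR adjusted p = 0.000502). Over the 8 kit libraries without Ribo-Zero Plus and all 8 HEK293T libraries, the deeper pool gave a floor ratio of 17.5.

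GYPC stood at 49.3 and 78.5 CPM in undepleted K562, at 0 in both undepleted HEK293T libraries and at 5.55 CPM (5 counts) in HEK293FT. The K562 libraries were above every HEK library, the highest of which was 7.5 CPM from 1 count. GYPC was called higher in K562 than in HEK293T (adjusted p = 7.68e-06, edgeR), at 5.76 times the floor of undepleted HEK293T. It was 11.4-fold higher than in HEK293FT (95% counting interval 4.76 to 35.6, adjusted p = 6.89e-09, edgeR). Unlike GYPB, it was detected in HEK293FT with both treatments, and the deeper oligo-depleted library held 23 counts, or 4.0 CPM.

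ANK1, the adaptor between spectrin and band 3, was at 195 and 199 CPM in undepleted K562. It had 0 and 1 count in undepleted HEK293T and 1 count, or 1.11 CPM, in undepleted HEK293FT. K562 was above both. Pooled levels differed 53.8-fold from HEK293T (95% counting interval 9.6 to 2130, adjusted p = 1.46e-12, edgeR). The fitted log2 difference of 5.83 rested on that 1 HEK293T count: it was 5.06 without HEK293T undepleted replicate 1 and 10.30 without replicate 2, which left HEK293T at 0. ANK1 was called in both cases (adjusted p = 8.68e-12 and 1.1e-10, edgeR). Against HEK293FT the ratio was 177 (interval 31.6 to 7010, adjusted p = 3.06e-21, edgeR). The pool of all 8 HEK293T libraries, with 9 counts, narrowed the ratio to 40.3 (interval 21.2 to 88.2).

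SPTB, the beta chain of red cell spectrin, was at 77.5 and 78.5 CPM in undepleted K562, at 0 in both undepleted HEK293T libraries and at 3.33 CPM (3 counts) in HEK293FT. It was called higher in K562 than in HEK293T (adjusted p = 2.38e-07, edgeR), at 7.11 times the floor of undepleted HEK293T. Against HEK293FT the difference was 23.4-fold (interval 7.88 to 115, adjusted p = 3.84e-12, edgeR). SPTB was not absent from HEK293T: the 6 depleted libraries held 1 to 6 counts each. All 8 together gave 9.85 CPM, and the 8 K562 kit libraries without Ribo-Zero Plus were 7.07-fold above that (interval 4.46 to 12).

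EPB41, the junction protein with roles in many cell types, was at 175 and 184 CPM in undepleted K562, at 108 and 71.7 CPM in undepleted HEK293T and at 64.4 CPM in HEK293FT. The groups did not overlap, but the HEK293T pair spread widely on 13 and 11 counts. The log2 difference from HEK293T was 1.19 ± 0.27 (SE, adjusted p = 0.000293, edgeR), and it was not called without HEK293T undepleted replicate 2 (0.92, edgeR adjusted p = 0.0722; range over the replicates left out 0.92 to 1.5). From HEK293FT the log2 difference was 1.48 ± 0.18 (adjusted p = 8.22e-10, edgeR). EPB41 was the member with the smallest difference between the lines among the 5 tested.

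SLC4A1 and EPB42 did not pass the filter on low counts and were not tested between lines. SLC4A1, the main transport protein of the mature red cell, had 7 and 5 counts in undepleted K562 (6.16 and 4.85 CPM), none in any HEK293T library and 3 in the deeper HEK293FT library (0.522 CPM). A difference from HEK293T was not detectable at undepleted depth. Over the 8 kit libraries without Ribo-Zero Plus, SLC4A1 had 83 counts and was at 2.07 times the floor of all HEK293T libraries. It was 7.55-fold above both HEK293FT libraries (interval 2.49 to 37.3). EPB42 had no count in either HEK line or in undepleted K562, and reached 6 and 7 counts (1.04 and 1.21 CPM) in the deepest K562 libraries, those of cold elution.

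**Figure D1:**
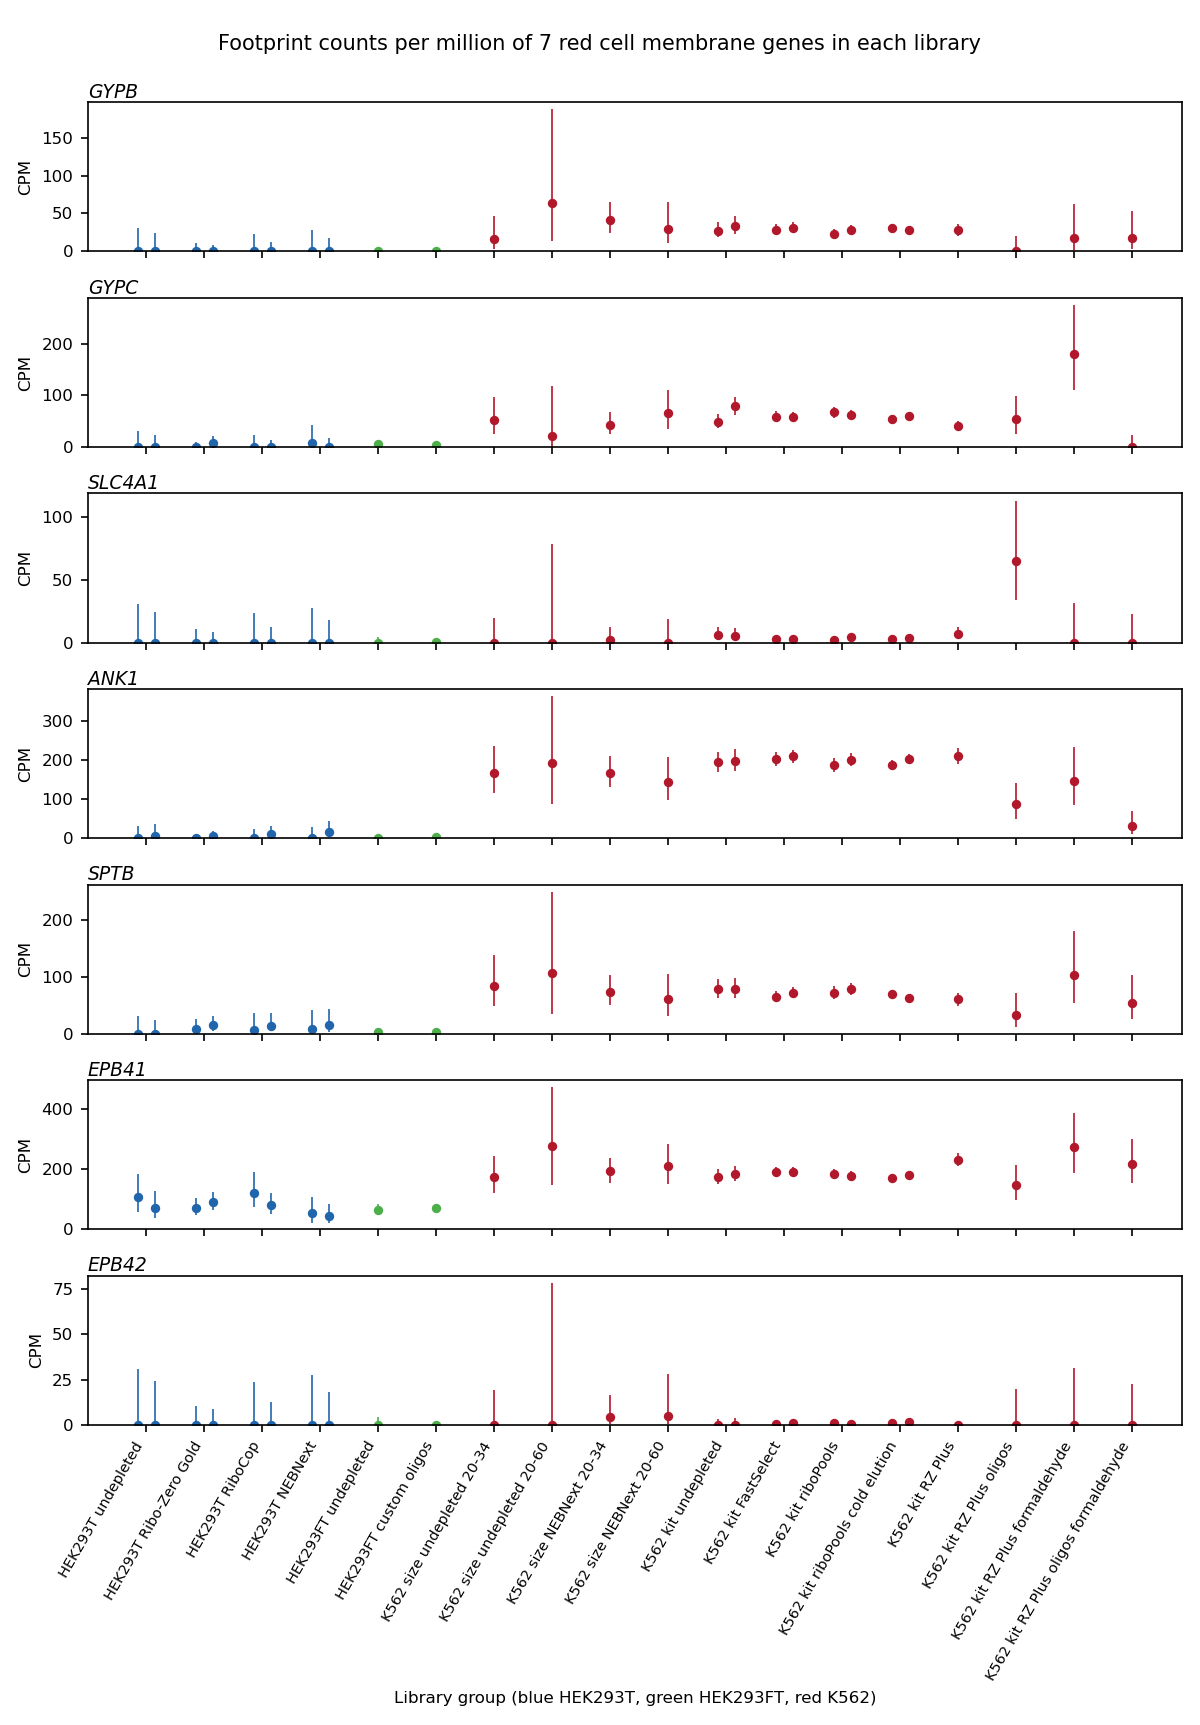
CPM of each gene in all 26 libraries, grouped by cell line and treatment along the horizontal axis, with exact Poisson 95% intervals as vertical lines and a separate vertical scale per gene. ANK1 lies between 187 and 210 CPM in the 9 K562 kit libraries without additions, EPB41 is present in every library, and EPB42 has at most 7 counts in any library.

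The order of the members in K562 was compared per kilobase of coding sequence, since longer sequences collect more reads. In the undepleted libraries GYPC stood highest, at 128 and 204 CPM per kilobase, followed by GYPB at 100 and 124. EPB41 came next at 69.5 and 73.0 CPM per kilobase, then ANK1 at 34.5 and 35.2, SPTB at 11.1 and 11.2, and SLC4A1 at 2.26 and 1.77. No neighbouring pair overlapped in these 2 libraries, but GYPC and GYPB did over the 9 kit libraries without additions, at 105 to 204 and 83.1 to 124 CPM per kilobase. The short glycophorins therefore led on this scale, whereas ANK1 and EPB41 led in CPM.

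Partners at one anchor point could be set side by side within each K562 library. ANK1 was 3.11 to 4.35 times SPTB per kilobase over the 9 kit libraries without additions (median 3.38), so the order of the pair was the same in each. In the size experiment the ratio was lower, at 2.23 to 2.99. With additions to Ribo-Zero Plus it was 3.3 (oligos), 1.75 (formaldehyde) and 0.688 (both). The order was thus reversed with both, on 5 ANK1 and 9 SPTB counts.

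**Figure D2:**
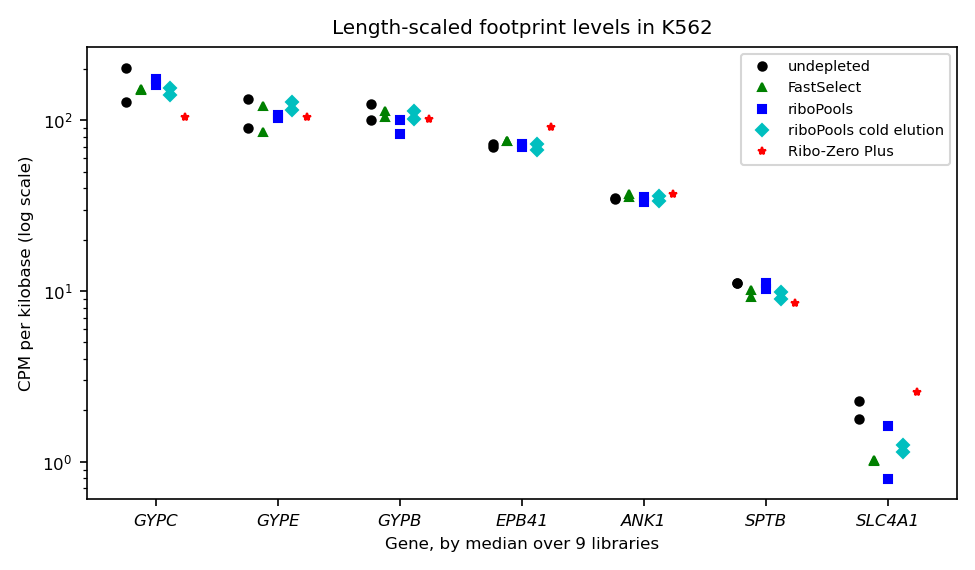
Level per kilobase of coding sequence, on a log axis, of 6 members and of the related glycophorin GYPE in the 9 K562 kit libraries without additions, with one symbol per treatment. Genes run from GYPC, at 105 to 204 CPM per kilobase, on the left to SLC4A1, at 0.798 to 2.58, on the right.

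The second question was whether the kits changed these readings. In K562, libraries made with FastSelect or with either form of riboPools had 0.978 to 1.06 times the undepleted level of ANK1 and EPB41. For SPTB, GYPB and GYPC these ratios ran from 0.835 to 1.02, and for SLC4A1, on few counts, from 0.5 to 0.622. In the single library of Ribo-Zero Plus alone, edgeR's test called EPB41 higher and GYPC lower, and DESeq2 called neither. Of 7 members, 6 passed the filter (EPB42 did not), and 9761 genes were tested in 1 fit whose spread came from the duplicated groups. All these comparisons share the 2 undepleted libraries.

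ANK1 varied least among the members, with 202 and 210 CPM after FastSelect, 187 and 201 after riboPools, 189 and 204 after cold elution and 210 after Ribo-Zero Plus alone. Its coefficient of variation over the 9 libraries was 4.12%, against 9.76% for EPB41 and 40.8% for SLC4A1. Leaving out Ribo-Zero Plus, ANK1 was at 3.87% and EPB41 at 4.17%. Such values include counting error, which is larger for members with fewer counts. For ANK1, the pooled levels were also set against undepleted. The ratios to undepleted were 1.05 (95% counting interval 0.937 to 1.17), 0.992 (0.885 to 1.11), 1.0 (0.902 to 1.11) and 1.07 (0.93 to 1.23), and every interval included 1. SPTB ran from 59.8 CPM (Ribo-Zero Plus) to 78.5 CPM (undepleted), with a coefficient of variation of 9.84%. GYPB ran from 22.7 to 33.9 CPM (11.0%) and GYPC from 40.2 to 78.5 CPM (18.4%). Apart from Ribo-Zero Plus, the lowest and the highest GYPC value were those of the undepleted pair, at 49.3 and 78.5 CPM.

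None of the 6 members was called by edgeR with FastSelect, where 0.0205% of all genes were, with riboPools (0.082%) or with cold elution (0.225%). None had an unadjusted p under 0.05 either, against 551, 574 and 621 of all genes, and DESeq2 called none of the 6. The smallest was SPTB with cold elution, at a log2 difference of -0.24 ± 0.13 (SE; unadjusted p = 0.0562, edgeR). The wide interval of SLC4A1 leaves the most room: its ratio to undepleted was 0.5 with FastSelect (interval 0.219 to 1.17), on 15 counts against 12.

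Ribo-Zero Plus alone was a single library and was assumed to vary like the duplicated groups. EPB41 was at 232 CPM there against 175 and 184 undepleted, and GYPC at 40.2 against 49.3 and 78.5. EPB41 rose by a log2 difference of 0.40 ± 0.10 (1.32-fold, adjusted p = 0.00291, edgeR) and GYPC fell by 0.62 ± 0.21 on the log2 scale (adjusted p = 0.0241, edgeR). These 2 of 6 stood beside 20.5% of all genes called, and DESeq2 called neither (adjusted p = 0.463 and 0.497). The GYPC call was lost without undepleted replicate 2 (-0.26, edgeR adjusted p = 0.539). SPTB, at 59.8 CPM, had a log2 difference of -0.36 ± 0.18 (edgeR adjusted p = 0.145).

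**Figure D3:**
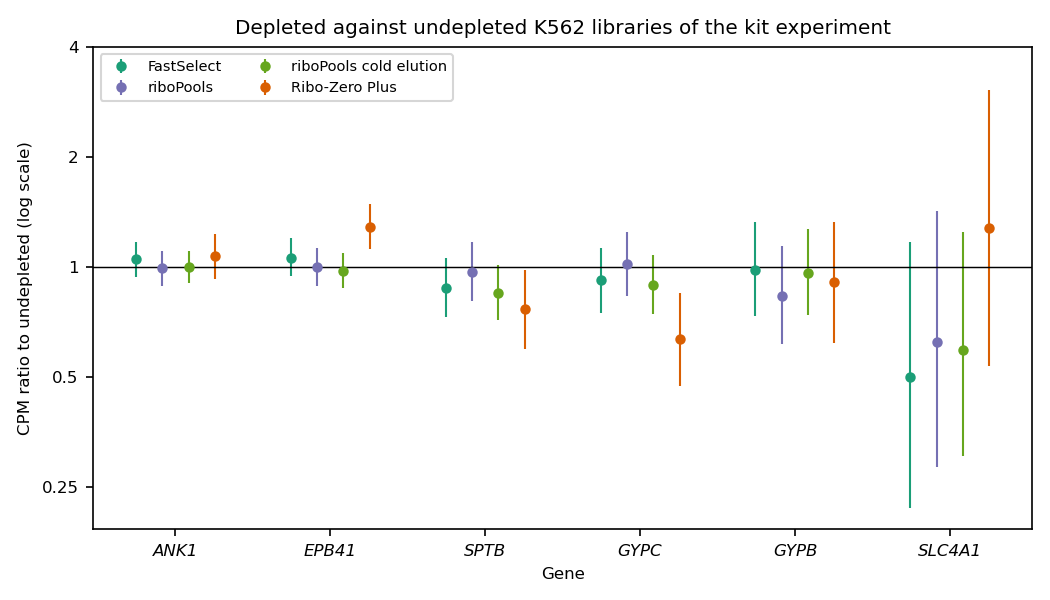
Ratio of pooled CPM in the 4 depleted groups without additions to the undepleted K562 libraries of the kit experiment, on a log axis, with exact 95% counting intervals as vertical lines, for the 6 members with counts in the undepleted libraries. The interval of EPB41 with Ribo-Zero Plus lies above 1 (1.12 to 1.49), those of GYPC (0.473 to 0.85) and SPTB (0.597 to 0.98) lie below it, and the other intervals drawn cross 1.

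With oligos, formaldehyde or both added to Ribo-Zero Plus, the members scattered on few counts. ANK1 was at 86.6 CPM with oligos, 146 with formaldehyde and 30.3 with both, below all 9 other kit libraries each time. GYPC was at 54.1, 180 and 0 CPM in the same order, so its libraries fell on both sides of undepleted. GYPB was at 0, 17.1 and 18.2 CPM, on 0, 2 and 3 counts.

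The median log2 difference of all genes from undepleted was -2.44 over these 3 libraries, and 44.3% of genes were called (41% lower). That median includes genes with no count in some of these libraries, so it is no measure of how far a gene with counts in all 3 fell. ANK1, with 16, 17 and 5 counts, fell by 1.60 ± 0.23 on the log2 scale (adjusted p = 1.55e-08, edgeR). GYPB (-3.67, edgeR adjusted p = 0.00401) was also called lower. For GYPC the same test gave -3.07 (edgeR adjusted p = 0.0176), although its mean over the 3 libraries, 78.0 CPM, was above the undepleted mean of 63.9 CPM. These values average the 3 libraries on the log scale, where 1 library of each gene had no count. With the 3 libraries as 1 group GYPC was at -0.08 (edgeR adjusted p = 0.945) and GYPB at -1.65 (edgeR adjusted p = 0.188), and only ANK1 was called among the 6 members, of 185 genes in all. DESeq2 called neither glycophorin. GYPC changed sign, to 0.47, without the library with both additions, and was not called without undepleted replicate 2 (-2.73, edgeR adjusted p = 0.0873). GYPB was not called without the library with oligos (-0.96, edgeR adjusted p = 0.197). EPB41 kept levels of 146, 274 and 218 CPM, with a log2 difference of 0.04 ± 0.17 (edgeR adjusted p = 0.849).

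SLC4A1 had 12 counts, or 65.0 CPM, in the library with oligos and none in those with formaldehyde. That was 11.7 times the undepleted level (interval 4.82 to 28.6, counting error only), from a single library of 184722 counts. The erythroid markers summed to between 5340 and 12700 CPM in these 3 libraries, below the other 9. Their part in the members' values was not tested.

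NEBNext was used in both HEK293T and K562. In the K562 size experiment ANK1 was at 168 and 145 CPM with NEBNext (20 to 34 nt, then 20 to 60 nt) and at 168 and 192 CPM in the libraries titled undepleted. EPB41 was at 193 and 210 CPM against 173 and 277, and SPTB at 72.5 and 60.1 against 84.1 and 107. The counting intervals of each pair overlapped. The members tested (GYPC, ANK1, SPTB and EPB41) had log2 differences of 0.18 ± 0.58, -0.05 ± 0.31, -0.33 ± 0.46 and 0.03 ± 0.29 (SE), and 0 of 4 was called by edgeR, against 2.72% of 3715 genes. None had an unadjusted p under 0.05. DESeq2 gave no adjusted p for any of the 4, so it could not have called them. Over the 4 libraries the glycophorins spread widely on 1 to 19 counts, GYPB from 15.8 to 64.0 CPM and GYPC from 21.3 to 65.1 CPM.

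In HEK293T, only EPB41 had enough counts to test. It was at 108 and 71.7 CPM undepleted, 71.2 and 90.1 with Ribo-Zero Gold, 122 and 79.2 with RiboCop, and 52.5 and 44.8 with NEBNext. The NEBNext pair lay below every other HEK293T library, but on 7 and 9 counts. The log2 difference was -0.85 ± 0.47 (edgeR adjusted p = 0.395) with NEBNext, where 3.24% of 4410 genes were called. It was -0.11 ± 0.36 with Ribo-Zero Gold (0.068% called) and 0.10 ± 0.38 with RiboCop, where none was called by edgeR (195 genes at an unadjusted p under 0.05). Whether NEBNext acts differently on EPB41 in the 2 lines was not tested.

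In HEK293FT the custom oligos left EPB41 at 69.9 CPM against 64.4 undepleted, a ratio of 1.09 (interval 0.823 to 1.46). GYPC was at 4.0 against 5.55 CPM and SPTB at 3.13 against 3.33 CPM, ratios of 0.721 (0.268 to 2.43) and 0.94 (0.275 to 4.98). With 1 library each there was no test. Of the members, only EPB41 had a mean of at least 20 counts over both libraries. It was not past 2-fold, as 2.3% of the 9549 genes with that mean were.

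Other red cell membrane genes were also higher in K562. Of 30 partners (blood group carriers, transporters and junction proteins), 21 were tested against HEK293T, 15 were called higher, 1 lower (BSG, log2 -0.49, named after its value was seen) and 5 were not called. Among all genes 20.4% were called higher. The median log2 difference of the partners was 2.03, beside 0.04 over all genes, but partners without a HEK293T count passed the filter on low counts through K562 alone. RHAG, the Rh-associated glycoprotein, averaged 564 ± 19.9 CPM (SD, n = 2) in undepleted K562 and had no HEK293T count. It stood at 51.4 times the floor of undepleted HEK293T.

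The membrane scaffold MPP1, which binds protein 4.1 and glycophorin C, had a log2 difference of 2.95 ± 0.26. Stomatin (STOM) had 2.95 ± 0.36, and the actin-capping protein TMOD1 had 2.56 ± 0.49 (SE; all with adjusted p under 0.05, edgeR). The surface protein ICAM4 averaged 38.1 ± 9.1 CPM and GYPE 26.1 ± 6.98 CPM in undepleted K562 (SD, n = 2), with no count in undepleted HEK293T. The adducins ADD1, ADD2 and ADD3, which cap spectrin-actin junctions in many cells, had log2 differences of 0.28, 0.53 and -0.09 and were not called.

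Several broadly expressed relatives of the members and their partners were lower in K562. Of 16 paralogues, 10 were tested, 2 were called higher in K562 and 5 lower, with 3 not called and a median log2 difference of -0.88. Among all genes 17.9% were called lower. The 2 called higher had no undepleted HEK293T count, so they passed the filter on low counts through K562 alone, and both are also among the partners. SPTAN1 and EPB41L3 had no undepleted K562 count and passed it through HEK293T alone. How many were called therefore says nothing about the paralogues as a set. SPTAN1, the alpha spectrin of other tissues, averaged 248 ± 37.8 CPM in undepleted HEK293T (SD, n = 2) and had no count in undepleted K562. It was called higher in HEK293T (adjusted p = 1.22e-20, edgeR), at 177 times the floor of undepleted K562. Across the 9 kit libraries without additions it had at most 5 counts.

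Beta spectrin SPTBN1 was at 7.71 ± 4.05 CPM in K562 and 33.9 ± 11.0 CPM in HEK293T (SD, n = 2 each; log2 difference -1.88 ± 0.61, adjusted p = 0.0123, edgeR). Among the protein 4.1 relatives, EPB41L2 was at 65.7 ± 4.44 and 131 ± 44.5 CPM (log2 -0.88 ± 0.29, adjusted p = 0.0122, edgeR). EPB41L3 had no K562 count in undepleted libraries and 96.5 ± 16.7 CPM in HEK293T, or 68.7 times the floor of undepleted K562. MPP5, a relative of the partner MPP1 and not of a member, was the other paralogue called lower (log2 -1.51). MPP5 and EPB41L3 were named after their values were seen. ANK3 (log2 0.08 ± 0.60) and the anion exchanger SLC4A2 (0.54 ± 0.26, edgeR adjusted p = 0.0965) were not called. Per kilobase, SLC4A2 stood at 39.5 ± 0.308 CPM in undepleted K562, far above SLC4A1.

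**Figure D4:**
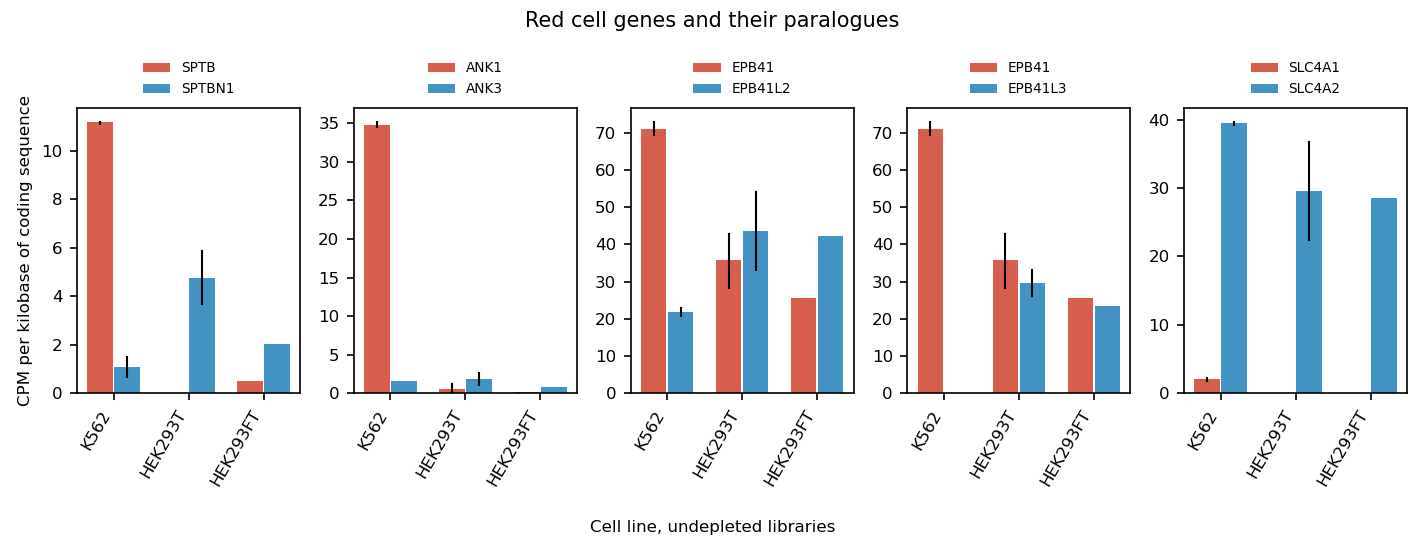
Mean level per kilobase of coding sequence of red cell genes (red) and their relatives (blue) in the undepleted libraries of K562 and HEK293T (2 libraries each, black lines from the lower to the higher) and HEK293FT (1 library). SPTB is above SPTBN1 in K562 and below it in both HEK lines, and SLC4A2 is above SLC4A1 in all 3.

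Promoters were read for the members in RefSeq (GRCh38.p14, 250 bases before to 50 after a gene start), where 5 of 7 members had at least 1. AGATAA, a form of the motif that GATA factors bind, or its reverse complement TTATCT, occurred in 4 of their 8 promoters, against 10.3% of 35116 promoters of that length. They were both windows of GYPB, which overlap and hold the same match, 1 of 2 of SPTB, and that of EPB42. Those of GYPC and EPB41 had neither sequence, but other forms of the motif were not searched for. The 100 bases before the start of SPTB (chr14:64879908-64880007, minus strand) and EPB42 (chr15:43221019-43221118, minus strand) are shown as 2 examples, with the motif in capitals.
SPTB: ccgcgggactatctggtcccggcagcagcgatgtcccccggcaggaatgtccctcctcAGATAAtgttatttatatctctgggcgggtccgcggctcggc
EPB42: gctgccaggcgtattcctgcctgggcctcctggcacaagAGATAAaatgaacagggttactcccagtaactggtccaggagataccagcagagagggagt
Undepleted K562 levels of the members shown differed, at 77.5 and 78.5 CPM for SPTB and 0 for EPB42. GYPC was the highest member per kilobase. Its window had neither AGATAA nor TTATCT, but it holds CTATCT, which differs from TTATCT in 1 base. As other forms were not searched for, GYPC and EPB41 cannot be taken as free of the motif. A link between the motif and these levels was not tested.

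Across the 18 libraries without NEBNext or Ribo-Zero Plus, the genes with patterns most like each member were listed by Pearson's r of log2(CPM + 1), among 6405 genes. GYPB was most like CD52 (0.999), and HBD was also among its nearest (0.998). GYPC was nearest HOXB4 (0.983), ANK1 RHOC (0.986), SPTB GRIN2D (0.987) and EPB41 ESYT1 (0.97). The libraries fall into 2 clusters, K562 and the HEK lines, and 154 to 572 genes had r over 0.9 with a member. Libraries of 1 experiment also share a line and a protocol.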

How the data were processed

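Ribosome footprints were measured in 26 libraries. The authors deposited whole-number counts per coding sequence (4 tables of 19478 transcripts, per the file headers) and RPM values of the same rows, which differ from CPM of the deposited counts by at most 3.64e-12. Only counts were tested. The submitters' processing notes name CASAVA 1.8, STAR and GRCh38/hg38. Handling of multiple matches and PCR duplicates is not given in the sources used here, so intervals (exact 95%: Poisson for levels, conditional binomial for ratios) and the floor of 3 counts cover counting error only. For 1 member no transcript matched GENCODE 29, and 2 matched another version. The 31 symbols on more than 1 transcript include no member. Totals of 46858 to 5795774 counts set the precision.

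CPM is the count over the library's total, scaled to 1000000. Tests used edgeR 4.0.16 (R 4.3.3), quasi-likelihood with TMM, filterByExpr (minimum count 10) and Benjamini-Hochberg adjusted p under 0.05 across the genes tested. The K562 kit fit had a term per group (4 residual degrees of freedom), the cell line fit a term per line (2), and the size fit depletion and size (1). Alternatives were RLE factors, DESeq2 1.42.0, no filter, other library sets, a replicate block and leaving out each library. Replicate pairs differed by 1.027 to 1.205 chi-square per degree of freedom. Both RiboCop libraries agree within sampling noise (chi-square p 0.103) but were kept, as their totals are 156200 and 290502 counts.

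Members and gene lists were chosen with earlier results of these data known. Named are all members, the partners and paralogues with the largest called differences (up to 8 per list, at least 20 counts per library in the higher group) and SPTAN1, SPTBN1, ANK3, EPB41L2 and SLC4A2. Some genes that met these rules are not reported here.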

Additional observations from a re-analysis of the deposited data

How the results depend on the processing

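Between lines, GYPB, GYPC, ANK1 and SPTB stayed called wherever they were tested, but they passed the filter on low counts through K562 alone. Without either undepleted K562 library GYPB was no longer tested, and without replicate 2 GYPC was not. Staying called is therefore no measure of how firm these differences are. EPB41 was lost in 1 setting. Among all genes, 2799 were called between K562 and HEK293T and 4027 between K562 and HEK293FT. With all libraries not depleted by NEBNext or Ribo-Zero Plus these were 5525 and 6547, and DESeq2 gave 2522 for HEK293FT. Leaving out a library gave 1642 to 1944 and 2296 to 2301 genes, and 3 to 5 and 3 to 4 members, with fewer members past the filter. Adding the K562 size libraries titled undepleted left 3 members tested and 3 called in both. With each library left out in turn, EPB41 against HEK293T ran from 0.92 to 1.5 (log2).

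DESeq2 called 1 gene with FastSelect (edgeR 2), 0 with riboPools (8) and 0 with cold elution (22). For Ribo-Zero Plus it called 34 genes alone (2005), 0 of the members, and 1986 with additions (4321), 1 member. The 3 libraries with additions as 1 group, chosen after seeing the data, gave 185 genes, 1 member, and SLC4A1 at 2.05 in place of -3.29. In HEK293T DESeq2 called 58 genes with NEBNext (143) and 1 with Ribo-Zero Gold (3), as did no filter. In the size experiment it called 16 (101), with EPB41 at -0.05, and 44 came without a size term. With no filter ANK1 was at 0.01 there. By effective library size, mean undepleted K562 levels were 202 CPM for ANK1 and 80.2 for SPTB. In HEK293FT, a mean of 100 counts, also added after seeing the data, left 0 genes past 2-fold (220).

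Leaving out libraries gave 1 to 3 genes with FastSelect, 2 to 9 with riboPools, 13 to 22 with cold elution and 1229 to 1382 with Ribo-Zero Plus alone, 1 to 2 of them members. It gave 56 to 150 with NEBNext in HEK293T, 1 in each case with Ribo-Zero Gold and 0 to 1 with RiboCop. Signs of small log2 differences turned. With FastSelect GYPB ran from -0.18 to 0.13 and GYPC from -0.44 to 0.24. With riboPools GYPC ran from -0.29 to 0.38, ANK1 from -0.08 to 0.03 and SPTB from -0.12 to 0.01. With cold elution GYPB ran from -0.22 to 0.1, GYPC from -0.48 to 0.2 and EPB41 from -0.1 to 0.02. With Ribo-Zero Plus alone GYPB ran from -0.27 to 0.05 and GYPC from -0.94 to -0.26. With additions GYPB ran from -5.12 to -0.96, GYPC from -5.3 to 0.47, SPTB from -1.02 to -0.24 and EPB41 from -0.14 to 0.27. EPB41 in HEK293T ran from -0.4 to 0.18 with Ribo-Zero Gold and from -0.18 to 0.45 with RiboCop. The cause of these changes was not tested. Values that round to 0.00 were taken as having no direction, a convention adopted after seeing the data.

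Replicate numbers were shared by 2 libraries a group and did not pair them (correlation of deviations -0.05 to 0.01 in K562 and 0.04 to 0.11 in HEK293T). With the replicate number as a block 2818 genes were called between K562 and HEK293T, 2, 9 and 27 for FastSelect, riboPools and cold elution, and 153, 3 and 0 for NEBNext, Ribo-Zero Gold and RiboCop in HEK293T, and no member's call changed. In the size experiment no library could be left out, as no residual degree of freedom remained. Depth limits SLC4A1, EPB42 and all members but EPB41 in HEK293T.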
